A study of Mus musculus with 16 samples.

Results

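Glycolysis genes and genes of the hypoxia response were followed through mammary epithelial cells sorted from mice. The list held 36 genes in 5 role groups, namely glucose and lactate transporters, glycolytic enzymes, regulators of glycolytic flux, the hypoxia-inducible factor (HIF) alpha subunits with their prolyl hydroxylases, and HIF targets. Each gene was represented by the probe set annotated to it with the highest mean over all arrays. That gave 32 measured members among 17097 named genes of the array, 13 of them enzymes and 9 HIF targets. Pgam1, Gpi1, Eno1 and P4ha1 were not analysed here. The first had only a probe set that it shares with a pseudogene copy, and for the other 3 the annotation used here gave no probe set of their own. All 32 had a mean above the lower quartile of all probe sets, although Eno2 lay under it in 1 array and Car9 came close to it in some.

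Cells came from 4 female mice aged 10 weeks and 2 days on a C57BL/6J 129 background. All 4 carried Sox2-Cre +/+, a Cre recombinase that acts in the early embryo, and 2 were Cpeb2 -/- (knockout) and 2 Cpeb2 +/+ (wild type), so the wild type also carried the Cre. Each mouse gave non-clonogenic luminal cells (Sca1+ CD49b-), ductal progenitors (Sca1+ CD49b+), alveolar progenitors (Sca1- CD49b+) and myoepithelial cells (Epcam low, CD49f high), which made 16 arrays in 8 groups of 2. Mouse 1 of either genotype had the same father and mother (parent pair A), and mouse 2 of either genotype had another father and mother (pair B). Values are log2 expression values as deposited, and differences are on the log2 scale, with ± 1 standard error from the fitted model. Genes whose Benjamini-Hochberg adjusted p, taken in limma over all 17097 genes, was under 0.05 count as called. Replicates are 2 mice per genotype, and their number limits the precision.

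Glycolysis turns glucose into pyruvate in the cytosol, and lactate dehydrogenase turns pyruvate into lactate. HIF is a pair of a beta subunit with an oxygen-labile alpha subunit, Hif1a or Epas1. With oxygen, the prolyl hydroxylases Egln1 and Egln3 mark the alpha subunit for destruction. When oxygen is low the factor binds the core sequence ACGTG and switches on transporters, most glycolytic enzymes, the angiogenic factor Vegfa, mitophagy genes such as Bnip3 and its own hydroxylases. Several of these genes also answer to other inputs, such as growth factor signalling, insulin and the stress factor ATF4.

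The core ACGTG was searched on both strands in the RefSeq promoters of assembly GRCm38.p6, which run from 250 bases before to 50 bases after a gene's start. A promoter was in the table for 30 of the 32 members (not for Epas1 and Ndrg1), and 23 of the 30 genes had the core in at least 1 promoter, against 3546 of 13605 measured genes (26.1%). Counted by promoter, since a gene can have several, it was in 26 of 42 member promoters and in 22.8% of the promoters of measured genes. By role it was in 9 of 13 enzymes and 7 of 8 HIF targets, and it was found in no promoter of Pfkl, Pfkp, Tpi1, Eno2, Pfkfb4, Pdk1 or Adm. The letters overlap the motif CACGTG, which reads as ACGTG on either strand, and a match describes letters and not a site in use. Windows of 60 bases from these promoters are printed for 8 members on which the comparisons turn, 5′ to 3′ on the gene's own strand, with the core (ACGTG, or CACGT where it lies on the other strand) in capitals.
Car9: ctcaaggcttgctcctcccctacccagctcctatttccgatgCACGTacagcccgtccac
Slc16a3: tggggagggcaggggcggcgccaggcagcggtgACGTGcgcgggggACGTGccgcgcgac
Bnip3: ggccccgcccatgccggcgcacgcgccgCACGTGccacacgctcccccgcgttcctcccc
Hif1a: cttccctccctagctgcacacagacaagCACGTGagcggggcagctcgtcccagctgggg
Hk2: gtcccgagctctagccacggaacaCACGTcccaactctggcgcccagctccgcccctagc
Aldoa: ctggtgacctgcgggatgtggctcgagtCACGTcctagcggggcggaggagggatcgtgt
Pkm: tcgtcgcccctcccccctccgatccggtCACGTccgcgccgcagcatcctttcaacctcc
Pfkfb3: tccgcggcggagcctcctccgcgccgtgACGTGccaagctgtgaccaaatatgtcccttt
These windows lie in GRCm38.p6 for Car9 at chr4:43506966-43507025 on the plus strand, Slc16a3 at chr11:120949007-120949066 on the plus strand, Bnip3 at chr7:138909583-138909642 on the minus strand, Hif1a at chr12:73907704-73907763 on the plus strand, Hk2 at chr6:82774645-82774704 on the minus strand, Aldoa at chr7:126799349-126799408 on the minus strand, Pkm at chr9:59657124-59657183 on the plus strand and Pfkfb3 at chr2:11553958-11554017 on the minus strand. Those of Bnip3 and Hif1a hold the core inside CACGTG, and that of Slc16a3 holds it at 2 separate places.

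Cpeb2 itself, the targeted gene, ran from 4.71 to 8.66 over the arrays and was lower in knockout in the mean of the populations, by -0.92 ± 0.21 (adjusted p = 0.0201, limma). Within single populations it was not called, with differences from -1.45 in non-clonogenic luminal cells to -0.39 in alveolar progenitors. The knockout mice were not alike. In the non-clonogenic luminal and ductal progenitor arrays, Cpeb2 read 6.42 and 6.39 in knockout mouse 1 and 7.67 and 7.35 in knockout mouse 2, beside 7.88 to 8.66 in wild type. The populations carried the markers of their sort. Myoepithelial markers averaged 11.95 to 12.18 in myoepithelial arrays and 6.19 to 7.27 in luminal ones, hormone-sensing markers 10.55 to 11.59 in both Sca1+ populations and 7.10 to 8.30 in alveolar progenitors, and alveolar markers 6.43 to 6.57 in non-clonogenic luminal cells, 9.43 to 10.67 in ductal progenitors and 11.75 to 12.07 in alveolar progenitors. In bulk samples, fewer cells of a type and less RNA per cell cannot be told apart.

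**Figure D1:**
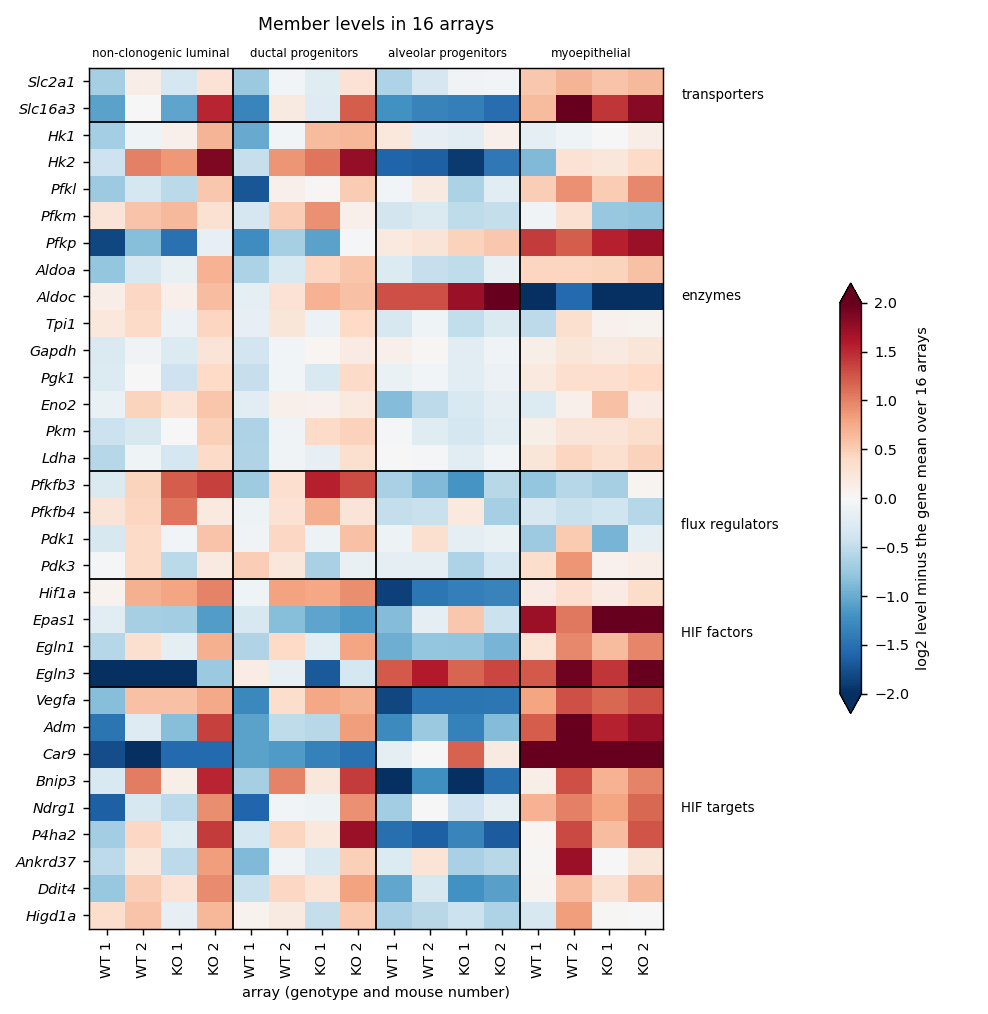
Levels of the 32 members (rows, by role) in the 16 arrays (columns, by population, genotype and mouse number), as log2 level minus the gene's mean over all arrays, with colours ending at -2 and 2. Most HIF targets are high in myoepithelial arrays and low in alveolar progenitors, Aldoc runs the other way, and mouse 2 of either genotype is mostly higher than mouse 1 in both Sca1+ populations.

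Most members differed between populations. The F test over the 4 populations called 24 of 32, against 49.8% of all genes, and the 8 that it did not call were Hk1, Pfkl, Tpi1, Gapdh, Pgk1, Ldha, Pdk1 and Ankrd37. With the parent pair as a block, 30 of 32 were called (48.3% of all genes). The block added Pfkl (adjusted p = 0.00715), Tpi1 (adjusted p = 0.0269), Gapdh (adjusted p = 0.039), Pgk1 (adjusted p = 0.0393), Ldha (adjusted p = 0.0087) and Ankrd37 (adjusted p = 0.0473). The mean over both genotypes was highest in myoepithelial cells for 21 members and lowest in alveolar progenitors for 20. The same was not counted over all genes, so these counts cannot be read as particular to the list.

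Myoepithelial cells stood above the mean of the luminal populations for the hypoxia side of the list. Of 32 members 23 were called, 19 higher and 4 lower, where 48.0% of all genes were called, 23.5% higher and 24.4% lower. HIF targets had 6 of 9 called higher and 0 lower with a median difference of 1.08, and enzymes had 7 of 13 called higher and 2 lower with a median of 0.27, beside a median of 0.02 over all genes. The median of the enzymes was thus 0.81 below that of the targets.

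Car9, a membrane carbonic anhydrase that handles acid at the cell surface, showed the widest gap. It read 9.79, 10.19, 9.52 and 10.27 in the myoepithelial arrays of wild-type mice 1 and 2 and knockout mice 1 and 2, while the luminal arrays had a lowest value of 5.22, a median of 6.01 and a highest of 8.43. All 4 myoepithelial arrays lay above all luminal ones. The difference was 3.60 ± 0.17 (adjusted p = 6.13e-09), and no fold is given because the non-clonogenic luminal arrays, at 5.22 to 5.69, lay close to the lower quartile of all probe sets (5.08 to 5.18). The vasodilator peptide gene Adm (2.25 ± 0.37, adjusted p = 0.00028), Vegfa (1.51 ± 0.26, adjusted p = 0.00045) and Ndrg1, a stress-response gene (1.22 ± 0.32, adjusted p = 0.00742), were also higher. P4ha2, a collagen prolyl hydroxylase subunit, and Bnip3 were called at 1.08 and 1.03. Both were set against a luminal mean that includes the low alveolar progenitors. Bnip3 averaged 11.19 in myoepithelial arrays, 11.01 and 10.91 in the Sca1+ populations and 8.57 in alveolar progenitors. P4ha2 averaged 9.46, then 8.88 and 9.16, and then 7.12. The myoepithelial arrays of both genes lay within the range of the Sca1+ arrays. The other 3 targets, the mTORC1 inhibitor gene Ddit4, the mitochondrial gene Higd1a and Ankrd37, differed by 0.18 to 0.66 and were not called. With the parent pair as a block, 26 members and 46.8% of genes were called, Ankrd37 (adjusted p = 0.0127) and Ddit4 (adjusted p = 0.0068) among them. Higd1a on its other probe sets gave 0.56 and 0.47 (limma adjusted p = 0.0404 and 0.116 over all probe sets).

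The alpha subunits and their hydroxylases were not alike across populations. Epas1 read 10.04, 9.38, 10.45 and 10.46 in the myoepithelial arrays, in the same order of mice, and 7.17 to 8.86 with a median of 7.64 in luminal arrays. These ranges do not meet, and the difference was 2.34 ± 0.20, or 5.07-fold (adjusted p = 9.3e-07). Its other probe set gave 2.49. Epas1 is also abundant in endothelium, and the 7 endothelial markers averaged 6.42 to 7.41 in myoepithelial arrays against 5.74 to 6.23 in luminal arrays, with 6 of 7 called higher. Among them Cdh5 read 7.83, 7.81, 8.47 and 9.30 in the myoepithelial arrays and up to 6.92 in luminal ones, and their part in the Epas1 difference was not tested. With any 1 mouse or array left out, the Epas1 difference lay between 2.18 and 2.50. Egln3 (2.20 ± 0.41) and Egln1 (0.95 ± 0.24) were higher too. Egln3 was also high in alveolar progenitors, at 11.19 to 11.62 beside 11.26 to 12.02 in myoepithelial cells. Its lower luminal values were those of the Sca1+ populations. Hif1a differed by 0.34 ± 0.15 (adjusted p = 0.0739, and 0.0308 with the block), but its other probe set gave the opposite sign, -0.73 (adjusted p = 0.00442 over all probe sets), so no direction is given for it.

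Among transporters, the monocarboxylate exporter Slc16a3 was 2.07 ± 0.45 higher and the glucose transporter Slc2a1 0.81 ± 0.16 higher in myoepithelial cells. Slc2a1 lay at 12.79 to 12.92 in the myoepithelial arrays and at 11.51 to 12.54 in the luminal ones, without overlap. Enzyme differences were mostly small, at 0.27 for Gapdh, 0.32 for Pkm, 0.42 for Pgk1, 0.48 for Ldha and 0.63 for Aldoa, all called higher. The 3 phosphofructokinase genes, which encode isoforms of the committed step of glycolysis, parted. The platelet-type Pfkp rose by 1.96 ± 0.24 (adjusted p = 2.78e-05) and the liver-type Pfkl by 0.96 ± 0.27 (adjusted p = 0.0113), whereas the muscle-type Pfkm was lower by -0.44 ± 0.16 (adjusted p = 0.0427, and 0.0726 with the block). The Pfkm mean in myoepithelial cells, 8.47, was not below that of alveolar progenitors, 8.39.

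Aldolase showed an even sharper exchange. Aldoc, the brain-type aldolase, read 6.85, 7.77, 6.89 and 6.86 in the myoepithelial arrays and 9.15 to 11.33 with a median of 9.93 in luminal ones. It was the only member whose myoepithelial arrays all lay under the luminal ones (background 7.22% of genes lower without overlap), and 5 members, Slc2a1, Pfkp, Epas1, Vegfa and Car9, had all of them above (background 8.53%). The difference for Aldoc was -2.98 ± 0.16, 7.91-fold (adjusted p = 1.43e-08), and -0.95 on its other probe set. That probe set averaged only 5.56 over the arrays, close to the lower quartile of all probe sets. The bifunctional regulators of fructose-2,6-bisphosphate, Pfkfb3 and Pfkfb4, were lower in myoepithelial cells than in the luminal mean, by -0.65 and -0.58. The Pfkfb3 mean was 9.74 in myoepithelial cells and 9.41 in alveolar progenitors, so only the Sca1+ populations had higher means. Of the pyruvate dehydrogenase kinases, Pdk3 was higher by 0.49 while Pdk1 was not called (-0.44, adjusted p = 0.138, and 0.0201 with the block).

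Genes next to the list on the map of metabolism moved in other ways. Of 16 tricarboxylic acid cycle genes, 1 was higher in myoepithelial cells and 11 were lower, led by Suclg2 (-1.53), Sdha (-1.30) and Sdhd (-1.23), and of 6 pentose phosphate genes 1 was higher (Tktl1, 2.64) and 4 lower (Taldo1 most, by -1.57). Among 27 other genes of glycolysis and pyruvate handling, 9 were higher and 11 lower. Slc2a4, the insulin-responsive glucose transporter, was 3.40 higher, and Galm, which interconverts glucose anomers, was lower by -2.37. Of 39 other genes of the HIF pathway, 16 were higher and 5 lower, with Vldlr (2.63), Tmem45a (2.49), Plod2 (2.44) and Ak4 (1.79) in front. These lists are counts beside the background above and carry no test of their own. In the same comparison 1 of 3 adipocyte markers (2.51), 2 of 6 fibroblast, 3 of 7 leukocyte and 3 of 4 pericyte markers were called higher. The remaining pericyte marker was called lower. The part of such cells in the differences of Slc2a4 and of the members was not tested.

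**Figure D2:**
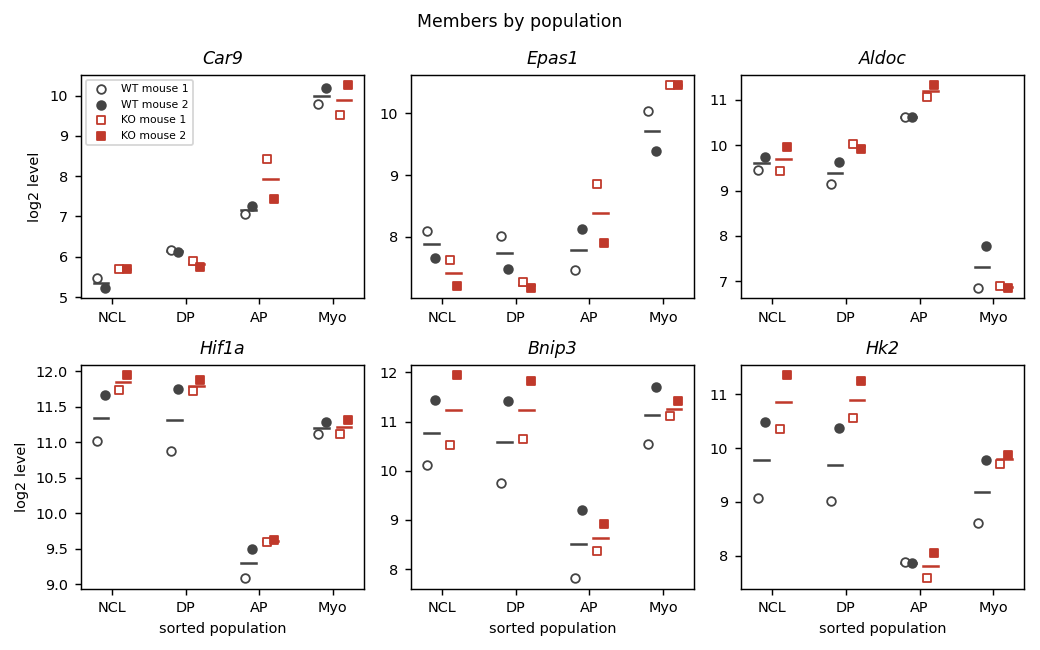
Log2 levels of 6 members in the 4 populations (NCL, non-clonogenic luminal; DP, ductal progenitors; AP, alveolar progenitors; Myo, myoepithelial). Points are arrays (open, mouse 1; filled, mouse 2; circles, wild type; squares, knockout) and bars are means of 2. Car9 and Epas1 are highest and Aldoc lowest in myoepithelial arrays, and Hif1a, Bnip3 and Hk2 are lowest in alveolar progenitors.

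Within the luminal layer the list split alveolar progenitors from both Sca1+ populations. Non-clonogenic luminal cells against alveolar progenitors gave 16 of 32 called, 12 higher and 4 lower, where 28.5% of genes were called (15.9% higher, 12.6% lower). Ductal against alveolar progenitors gave 15, 11 higher and 4 lower, where 22.0% were called (11.3% higher, 10.7% lower). These comparisons share the alveolar arrays, so they do not support each other. Higd1a was called in the first (0.92 ± 0.26, adjusted p = 0.0183) and missed the threshold in the second (0.64 ± 0.26, adjusted p = 0.104). Its other probe sets were called in the second too, at 1.13 and 0.93 (limma adjusted p = 0.0122 and 0.0186 over all probe sets).

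Hif1a, the alpha subunit found in most cells, was low in alveolar progenitors alone. It read 9.08, 9.50, 9.59 and 9.62 there and 10.87 to 11.95 in the 8 Sca1+ arrays. It was 2.15 ± 0.18 higher in non-clonogenic luminal cells (adjusted p = 2.46e-06) and 2.11 ± 0.18 higher in ductal progenitors (adjusted p = 5.77e-06), and here its other probe set had the same sign, at 2.75 and 2.60. Hk2, the inducible hexokinase, read 7.88, 7.86, 7.58 and 8.05 in alveolar progenitors and 9.02 to 11.36 in Sca1+ arrays. The differences were 2.48 ± 0.37 and 2.45 ± 0.37, about as large as those of Bnip3 (2.44 ± 0.47 and 2.34 ± 0.47). P4ha2 (1.75 and 2.04), Vegfa (1.82 and 1.69), Pfkfb3 (1.50 and 1.43) and Ddit4 (1.15 and 1.17) had the same direction in both comparisons. Egln1, Pfkm, Pfkfb4 and the neuronal enolase Eno2 were called higher as well, by 0.51 to 0.96, although Pfkfb4 lost its call in ductal against alveolar progenitors with the block (adjusted p = 0.0555). With the block Slc16a3 was called in both (1.21, adjusted p = 0.0399, and 1.31, adjusted p = 0.0341) and Tpi1 in the first (0.52, adjusted p = 0.00995).

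Another set of 4 called members ran against them and was highest in alveolar progenitors among luminal cells. Egln3 read 11.25, 11.62, 11.19 and 11.37 in alveolar progenitors, 10.17, 9.87, 8.34 and 9.67 in ductal progenitors and 6.33, 8.02, 6.62 and 9.28 in non-clonogenic luminal cells. It fell by 3.80 ± 0.51 from alveolar progenitors to non-clonogenic luminal cells (adjusted p = 0.000114) and by 1.85 ± 0.51 to ductal progenitors (adjusted p = 0.0202). Car9 (-2.02 and -1.56), Pfkp (-1.45 and -1.11) and Aldoc (-1.25 and -1.22) were lower in the Sca1+ cells in the same way. HIF targets thus held both directions, with a median difference of 0.92 and 0.73 against 0.06 and 0.08 for enzymes and 0.03 and 0.01 for all genes. Of the other enzymes, Hk1, Pfkl, Gapdh, Pgk1 and Ldha lay between -0.09 and 0.08 in both comparisons. Aldoa (0.21 and 0.36), Pkm (0.14 and 0.25) and Tpi1 (0.52 and 0.39) had higher means in the Sca1+ cells, and none of these 8 was called without the block. A p that misses the threshold does not show that levels were equal. Epas1, opposite in sign to Hif1a, also had its highest luminal mean in alveolar progenitors. It was not called in either comparison (-0.44 and -0.60). Its other probe set was called in both, at -0.58 and -0.52 (limma adjusted p = 0.00456 and 0.0118 over all probe sets).

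Non-clonogenic luminal cells and ductal progenitors were close to each other on this list. No member was called (limma, 2 of 32 at an unadjusted p under 0.05, 0.795% of all genes called, 0.0409% higher and 0.755% lower). Egln3, the largest difference, was -1.95 ± 0.51 (adjusted p = 0.181), and Car9 was -0.46 ± 0.21. All other members lay between -0.34 and 0.27.

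The question of the study's design was what the loss of Cpeb2, a protein that binds cytoplasmic polyadenylation elements in messenger RNAs and regulates their translation, does in these cells. Averaged over the populations, 4 of 32 members were called in knockout against wild type, 3 higher and 1 lower, where 10.2% of genes were called, 3.18% higher and 7.04% lower. The 3 that rose belong to glycolysis. They were Pfkfb3, whose product drives phosphofructokinase (0.78 ± 0.19, adjusted p = 0.0232), Aldoa, the main aldolase (0.48 ± 0.13, adjusted p = 0.0334), and the pyruvate kinase gene Pkm (0.34 ± 0.10, adjusted p = 0.0465). Pdk3, a kinase that inhibits pyruvate dehydrogenase, fell by 0.48 ± 0.14 (adjusted p = 0.048). For Pdk3 the knockout arrays read 6.90 and 7.39 beside 8.03 and 7.76 in wild-type ductal progenitors, 6.93 and 7.19 beside 7.35 and 7.34 in alveolar progenitors, and 7.62 and 7.67 beside 7.90 and 8.43 in myoepithelial cells. The genotypes did not overlap in these 3 populations, but did in non-clonogenic luminal cells, where knockout mouse 2 at 7.72 lay above wild-type mouse 1 at 7.50. No HIF target was called, although their median difference was 0.34 beside 0.29 for the enzymes and 0.02 for all genes.

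The count of 4 rested on single mice as well. Dropping wild-type mouse 1 or knockout mouse 2 left 0 calls, dropping knockout mouse 1 left 1, and dropping wild-type mouse 2 gave 9. The fit counted the arrays of a mouse almost as separate samples (correlation 0.0383). For the mean of the populations, p thus measures the spread between arrays more than that between mice. With the parent pair as a block, 11 members were called, 10 higher and 1 lower, where 20.1% of genes were called. That fit used a correlation of -0.0568 between arrays of a mouse. A value below 0 narrows the standard errors of a difference between mice, and knockout minus wild type is such a difference. How much of the rise in calls came from this was not tested. The block added Slc2a1 (0.27, adjusted p = 0.0456), Hk1 (0.52, adjusted p = 0.0096), Hk2 (0.71, adjusted p = 0.00857), Eno2 (0.34, adjusted p = 0.0174), Hif1a (0.33, adjusted p = 0.0251), Vegfa (0.60, adjusted p = 0.0394) and Ndrg1 (0.65, adjusted p = 0.00985). Hif1a on its other probe set differed by 0.74, called without the block (adjusted p = 0.017 over all probe sets), and Aldoc on its other probe set differed by 0.30 (adjusted p = 0.0271). The latter came from alveolar progenitors, where that probe set differed by 1.30 (adjusted p = 0.00195) and the one used for Aldoc by 0.58 without a call. That other probe set averaged only 5.56 over the arrays, close to the lower quartile of all probe sets, and the one used 9.33.

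Of the single populations, ductal progenitors were the one with called members. Here 4 were called, all higher, where 7.44% of genes were called, 3.09% higher and 4.35% lower. Pfkfb3 read 9.51 and 10.56 in wild-type mice 1 and 2 and 11.78 and 11.53 in knockout mice 1 and 2. Both knockout arrays lay above both wild-type arrays, by 1.62 ± 0.36 on average, or 3.08-fold (adjusted p = 0.0257), and the second Pfkfb3 probe set gave 1.52. Hk1, the hexokinase of most tissues, read 9.82 and 10.77 in wild type and 11.46 and 11.49 in knockout (1.18 ± 0.30, adjusted p = 0.038), but 0.55 and no call on its other probe set. Aldoa read 11.18 and 11.51 against 12.24 and 12.36 (0.95 ± 0.24, adjusted p = 0.0377), and its 4 probe sets, which may also take up near-identical copies, gave 0.73 to 0.95. Pkm read 11.06 and 11.61 against 12.06 and 12.13 (0.76 ± 0.18, adjusted p = 0.0335). In each of these 4 genes, wild-type mouse 1 was the lowest of the 4 arrays.

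All 13 enzymes had a higher mean in knockout ductal progenitors, where 10659 of all 17097 genes did. The enzyme median was 0.43 beside 0.08 over all genes. The knockout arrays lay above both wild-type arrays for 6 of the 13 and for 8 of the 32 members, where they did so for 38.0% of all genes. They lay below both for 4 members, where 22.5% of genes did. HIF targets had a median of 0.64, with 7 of 9 higher on average and 0 called. Among them only Vegfa had both knockout arrays higher (9.35 and 10.99 against 11.41 and 11.35), by a difference of 1.21 ± 0.46 (adjusted p = 0.116), and Car9 had both lower. With the block Hk2 (1.20, adjusted p = 0.045) and Ndrg1 (1.23, adjusted p = 0.0358) were added, which made 6 called (9.39% of genes).

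Several other measures moved with genotype in the same arrays. Of 21 cell cycle genes, 14 were called lower in knockout ductal progenitors and 0 higher (median -2.49). Hormone-sensing markers averaged 11.41 to 11.59 in knockout and 10.55 to 10.70 in wild type, and alveolar markers 9.43 to 9.91 against 10.13 to 10.67. Of 5 hormone-sensing markers 4 had a higher mean in knockout and 2 were called, but Foxa1 was lower (10.39 and 10.48 against 10.93 and 10.51). Of 7 alveolar markers 5 had a lower mean and 3 were called, but Ltf was higher (11.38 and 11.72 against 11.02 and 10.44). The fibroblast markers averaged 6.47 to 6.68 in knockout and 6.95 and 8.12 in wild type, and the genotypes did not overlap. The 3′ less the middle control probe set of Gapdh, a sign of RNA integrity, was 0.15 and 0.12 in knockout and 0.60 and 0.39 in wild type. Less the 5′ control it did not show this gap, at -0.27 and -0.29 against -0.29 and -0.38. For Actb the 3′ less the middle was 0.05 and 0.06 in knockout and 0.12 and 0.27 in wild type. The 3′ less the 5′ of Actb was -0.31 and -0.28 against -0.09 and -0.26. Luminal markers averaged 12.30 to 12.37 in knockout and 11.74 to 12.12 in wild type, leukocyte markers 5.69 to 5.72 against 5.38 to 5.53 (1 of 7 called higher), and adipocyte markers 5.60 to 5.70 against 5.86 to 6.33. The part of each in the glycolysis differences was not tested. The count also rested on single mice, since dropping wild-type mouse 1 or either knockout mouse left 0 calls, dropping wild-type mouse 2 gave 9, and 0 were made when only the 4 ductal progenitor arrays were fitted.

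**Figure D3:**
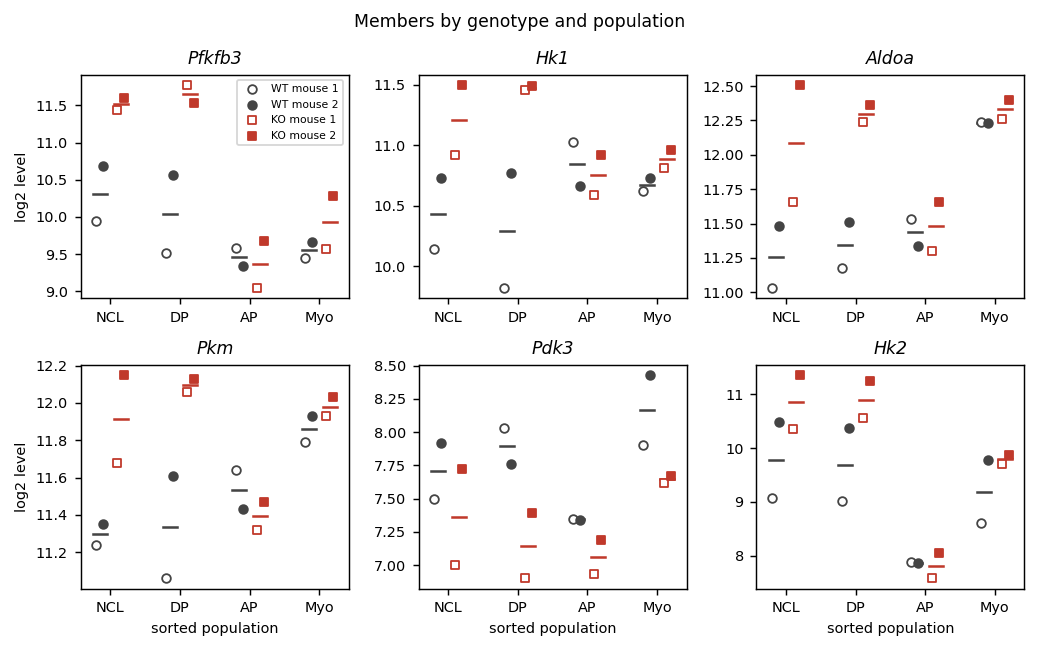
Log2 levels of 6 members by population (abbreviated as NCL, DP, AP and Myo for non-clonogenic luminal, ductal progenitor, alveolar progenitor and myoepithelial arrays) and genotype. Points are arrays (open, mouse 1; filled, mouse 2; circles, wild type; squares, knockout) and bars are means of 2. Pfkfb3, Hk1, Aldoa and Pkm have both knockout arrays above both wild-type arrays in DP and NCL, and the genotypes overlap in AP for all but Pdk3.

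Non-clonogenic luminal cells had differences of similar size that did not pass. No member was called (limma, 4 of 32 at an unadjusted p under 0.05, and 2.06% of all genes called, 0.339% higher and 1.73% lower). The knockout arrays lay above both wild-type arrays for 6 members and below both for 1, where 28.7% and 22.1% of genes did. Pfkfb3 read 9.94 and 10.68 in wild type and 11.44 and 11.60 in knockout (1.21 ± 0.36, adjusted p = 0.107), Aldoa differed by 0.83 ± 0.24 (adjusted p = 0.101), and Pkm by 0.62 ± 0.18 (adjusted p = 0.11). HIF targets had a median of 0.72 and enzymes of 0.34. In the same arrays 9 of 21 cell cycle genes were called lower (median -2.19). Hormone-sensing markers averaged 11.38 to 11.52 in knockout and 10.77 to 10.86 in wild type, although Foxa1 was lower (10.60 and 10.61 against 11.15 and 10.93). Fibroblast markers averaged 5.87 to 6.37 against 6.56 to 6.64, and myoepithelial markers 6.47 to 6.55 against 6.19 to 6.25. The part of all these in the differences was not tested. Without wild-type mouse 2, 5 members were called here. In alveolar progenitors and myoepithelial cells no member was called (1 and 2 of 32 at an unadjusted p under 0.05, 0.620% and 1.01% of genes called). In alveolar progenitors 0.269% of genes were called higher and 0.351% lower, and in myoepithelial cells 0.445% and 0.567%. The knockout arrays lay above both wild-type arrays for 7 and 6 members (20.7% and 17.5% of genes) and below both for 9 and 2 (23.4% and 24.0% of genes), with medians of -0.09 and 0.10 for enzymes and 0.08 and 0.12 for targets. In these 2 populations Pfkfb3 differed by -0.10 ± 0.36 and 0.37 ± 0.36.

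Whether the knockout difference varied over the populations was asked with an F test. No member was called by limma, against 0.667% of all genes. An unadjusted p under 0.05 was found for 6 members, Pkm, Pfkfb3, Aldoa, Epas1, Hk1 and Pfkm, of which Pkm had the lowest adjusted p (0.181, limma). A difference between populations in the knockout effect is therefore not shown for any member. Pdk3 had a lower mean in knockout in all 4, by -0.28 to -0.75.

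Lists of related pathways are given beside the 7.04% of all genes called lower and 3.18% called higher in the mean of the populations. There 7 of 16 tricarboxylic acid cycle genes were lower and 0 higher, led by Suclg2 (-0.67 ± 0.09), Idh3a (-0.54 ± 0.10) and Idh2 (-0.52 ± 0.11). Of 39 other HIF pathway genes 2 were higher, the heme oxygenase gene Hmox1 (1.03 ± 0.20, adjusted p = 0.00793) and the repressor gene Bhlhe40 (0.34 ± 0.09), and 3 lower, Plin2 (-0.55), Cul2 (-0.39) and Rbx1 (-0.24). The last pair are subunits of the ubiquitin ligase that removes HIF alpha. Of 27 other genes of glycolysis and pyruvate handling, 0 were higher and 3 lower, Dlat (-0.62), Ldhb (-0.49) and Tigar (-0.43). Of 21 cell cycle genes 20 were lower and 0 higher.

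The mice of the parent pairs were also set against each other, a comparison added after the data had been seen. Pair B against pair A, within genotype and population, gave 6 of 32 members called, all higher in pair B, where 0.538% of genes were called, 0.398% higher and 0.140% lower. Of the 6, 5 were HIF targets. They were Bnip3 (1.12 ± 0.13, adjusted p = 0.00599), Adm (0.95 ± 0.17, adjusted p = 0.0423), Ndrg1 (0.86 ± 0.14, adjusted p = 0.0344), Ankrd37 (0.79 ± 0.14, adjusted p = 0.0423) and Ddit4 (0.63 ± 0.10, adjusted p = 0.0349). The other was Pdk1, a HIF-responsive kinase that shuts pyruvate dehydrogenase (0.62 ± 0.10, adjusted p = 0.0356).

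Bnip3 shows the pattern array by array. In pair A and then pair B it read 10.11 and 11.44 in wild-type and 10.53 and 11.95 in knockout non-clonogenic luminal cells, 9.76 and 11.42 in wild-type and 10.64 and 11.82 in knockout ductal progenitors. It read 7.81 and 9.20 in wild-type and 8.36 and 8.91 in knockout alveolar progenitors, and 10.55 and 11.71 in wild-type and 11.11 and 11.41 in knockout myoepithelial cells. The pair B mouse was higher in all 8 groups. For Ndrg1, the pair B mouse of the same genotype and population stood 0.23 to 1.54 higher, with the smallest gaps in knockout alveolar progenitors and in myoepithelial cells. For Adm the gaps ran from 0.20 to 2.22, for Ankrd37 from 0.09 to 1.68, for Ddit4 from 0.13 to 1.25 and for Pdk1 from 0.05 to 1.24. The smallest gap was in knockout alveolar progenitors for 4 of these 5 genes, and in knockout myoepithelial cells for Adm. The same held for 10 of 32 members, Slc2a1, Pfkl, Pgk1, Pdk1, Hif1a, Adm, Bnip3, Ndrg1, Ankrd37 and Ddit4, where 1.47% of all genes were higher in pair B in all 8. On average 29 of 32 members were higher in pair B, where 9505 of all 17097 genes were. Car9 (-0.01), Pfkfb4 (-0.24) and Epas1 (-0.30) were the 3 members that were not. The median pair difference was 0.79 for HIF targets, 0.30 for enzymes and 0.01 for all genes.

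**Figure D4:**
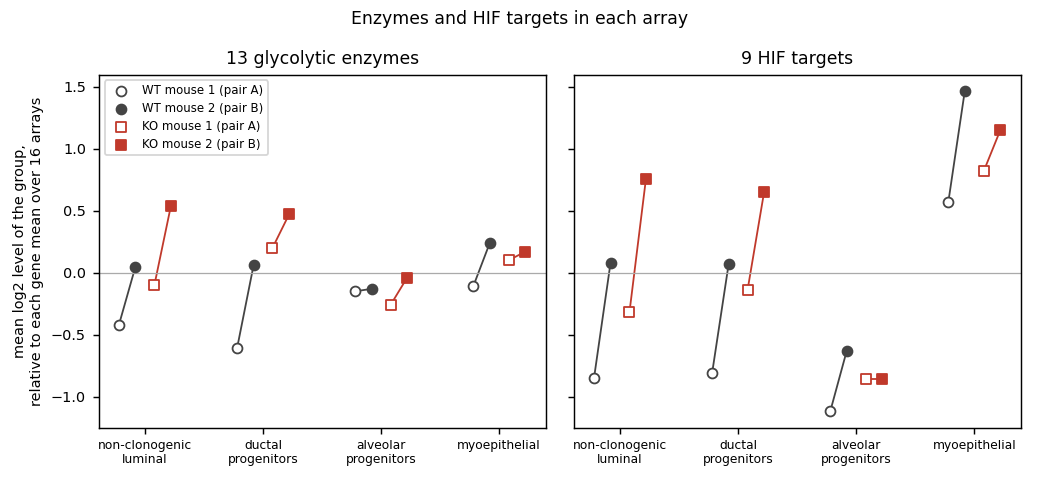
Mean log2 level of the 13 enzymes (left) and 9 HIF targets (right) in each array, relative to each gene's mean over 16 arrays, by population. Lines join the 2 mice of a genotype (open, pair A; filled, pair B; circles, wild type; squares, knockout). The pair B mouse is higher in all groups except the targets of knockout alveolar progenitors, and targets spread more widely than enzymes.

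Averaged over its 4 arrays, a mouse's HIF target level was -0.55 and 0.25 for wild-type mice 1 and 2 and -0.12 and 0.43 for knockout mice 1 and 2, relative to the gene means. The enzyme level was -0.32 and 0.06 for wild type and -0.02 and 0.28 for knockout. Either genotype thus spans a range that reaches into that of the other, although within each pair the knockout mouse had the higher level. In single populations this did not always hold. For the targets of pair B, knockout minus wild type was -0.24 in alveolar progenitors and -0.32 in myoepithelial cells. The pair difference and the knockout difference were of like size for the enzymes (medians of 0.30 and 0.29), while for HIF targets the pair difference was the larger (0.79 and 0.34). That difference between the medians was not tested.

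The wider HIF list shared the direction of pair B. Of 39 other HIF pathway genes 9 were called higher and 0 lower, with Ak4 (1.18 ± 0.17), Zfp395 (0.88 ± 0.16), Gys1 (0.86 ± 0.11) and Fam162a (0.77 ± 0.12) in front. Of 12 genes of the MYC and ATF4 stress list 5 were higher, Chac1 (1.50 ± 0.14), Trib3 (1.16 ± 0.08), Sesn2 (0.75 ± 0.07), Vldlr (0.75 ± 0.11, which is on both lists) and Ddit3 (0.58 ± 0.10). None was called among 21 cell cycle, 15 dissociation stress, 16 tricarboxylic acid cycle and 27 other glycolysis genes, of which 0, 6, 1 and 7 had an unadjusted p under 0.05. The fibroblast markers Col3a1 (-0.94) and Col1a1 (-0.66) were lower in pair B, and the part of other cells in the pair difference was not tested.

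Only 4 mice stand behind the pair comparison. With 2 mice against 2, an exact two-sided permutation test over mice cannot go below p = 0.333. The pair fit used a correlation of -0.0568 between arrays of a mouse, and a value below 0 narrows the standard errors of a difference between mice. The call count was 1 without the mouse as a block and 0 without any one of the 4 mice, and without a single array it ran from 1 to 6. The F test found no member whose pair difference varied over populations (0 of all 17097 genes were called, and 8 members had an unadjusted p under 0.05). What sets the pairs apart besides their parents, such as the day of the sort, is not stated in the labels, so parents and handling cannot be told apart.

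**Figure D5:**
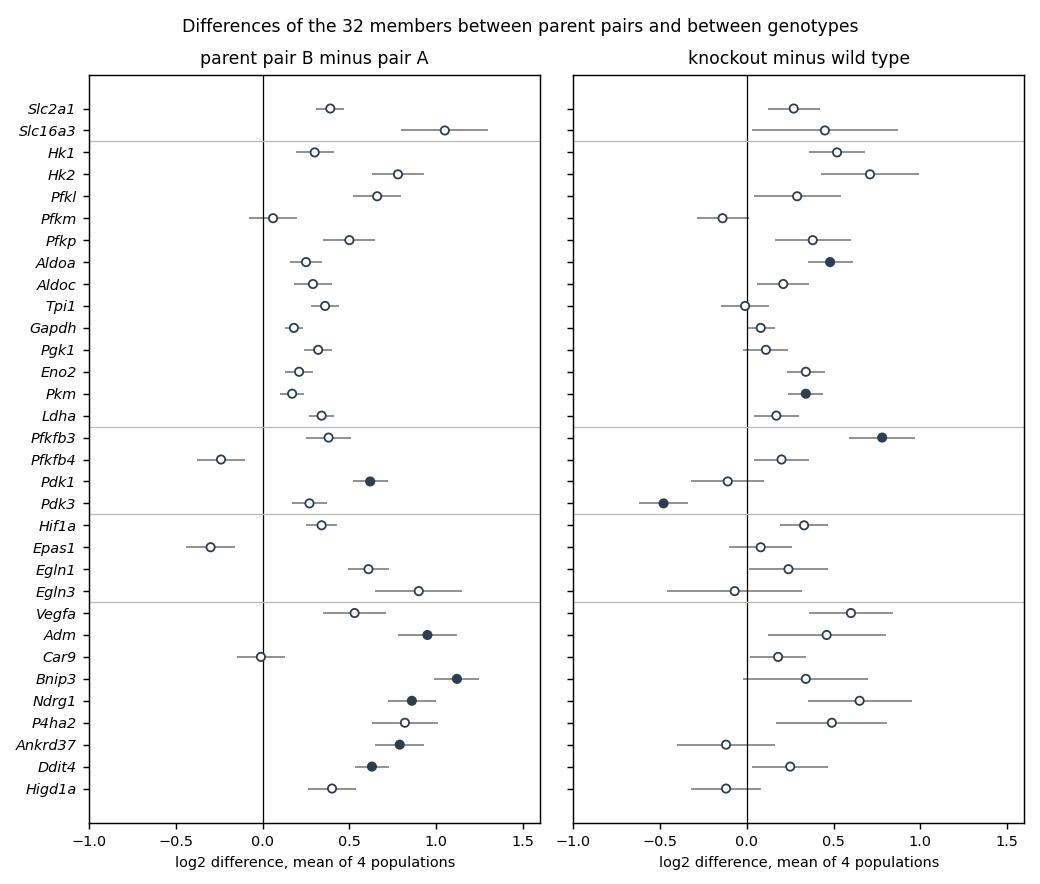
Log2 differences (± standard error of the fit) of the 32 members, parent pair B minus pair A on the left and knockout minus wild type on the right, both as the mean over the 4 populations. Filled points were called. HIF targets are called only on the left, where 29 of 32 points lie above 0, and Pfkfb3, Aldoa, Pkm and Pdk3 are called only on the right.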

How the data were processed

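Total RNA of sorted cells, 15 ng per sample, was amplified, labelled with biotin and hybridised to Affymetrix mouse arrays, per the labels' protocols. The authors deposited 1 value per probe set and array on the log2 scale. RMA and limma are named in the submitters' processing notes without role or version, and no further setting is stated. The table held 45141 probe sets with array medians of 6.35 to 6.40. GEO's platform annotation gave 1 symbol for 28898, several for 551 and none for 15588, and 104 were controls. Names can be old, and probe sets of the _x_at and _s_at types (used for Aldoa, Tpi1, Gapdh and Ndrg1) can take up near-identical copies.

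All arrays entered 1 fit in limma 3.58.1 (R 4.3.3, statmod 1.5.0) with 8 group means, mouse as a random block (consensus correlation 0.0383) and eBayes with a trend, with 8 residual and 3.9 prior degrees of freedom. The fit was also run on simulated data with a mouse effect about as weak as this correlation. That run does not cover genes that differ more between mice. Calls used Benjamini-Hochberg adjustment over 17097 genes. The parent-pair fit added the pair as a term (consensus correlation -0.0568, 7 residual degrees of freedom). Within 1 population, nothing says that arrays of a group differ by more than the mouse. Even there, p-values use a spread between mice that is pooled over all 8 groups and not that of the population alone. The same 4 mice enter this pooled spread once for each population. For the mean of the populations, the low correlation makes the arrays of a mouse count almost as separate samples. Those p-values, also with the pair as a term, measure the spread between arrays more than that between mice.

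Members, role groups, other lists and markers were chosen with earlier results of these data known, so no list carries a test, and list counts are read beside the share of all genes called. Called members were named with their statistics (where over 12 were called, at most the 6 largest in each direction, others by value or range), and up to 4 called genes of each other list, largest first. Rbx1 and Ddit3, the fifth of their lists, were named after their values were seen.

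The labels give mouse 1 of both genotypes the same parents, and likewise mouse 2, so same-numbered mice were taken as pairs, although deviations from group means over all genes correlated at only -0.043 to 0.074. Alternatives were the pair block, no mouse block or a fixed one, no trend, array weights, only the arrays compared, quantile normalization, a filter on dim genes, other probe set rules, and leaving out each mouse and each array. The gene of the sort antigen Sca1 was left out. Promoter sequences are RefSeq's, GRCm38.p6.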

Additional observations from a re-analysis of the deposited data

How the results depend on the processing

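Most counts of called members stayed within 1.5 times their value under the other settings, and no called member difference reversed. Of 654 checks of a called member difference under another setting, 623 kept the call and 31 lost it, and of 1360 checks with a mouse or an array left out, 1041 kept it and 319 lost it. The knockout count over the mean of the populations was 4, but 11 with the replicate block of parent pairs, 2 without the eBayes trend and 2 when all probe sets were tested. The count in ductal progenitors was 0 when only the arrays compared were fitted. Non-clonogenic luminal cells against ductal progenitors gave 1 with mouse as a fixed effect and 1 from only the arrays compared. The parent pair count was 1 without the mouse block. The block of parent pairs moved no other count by over 1.5 times, and members whose call it changed are named beside their values. The causes of these changes were not tested, except that fewer arrays give fewer degrees of freedom.

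Leaving out 1 mouse or array gave 0 to 9 members called for the mean knockout difference, 0 to 9 in ductal progenitors, 0 to 5 in non-clonogenic luminal cells, 0 to 0 in alveolar progenitors and in myoepithelial cells, and 0 to 2 for the F test of varying knockout effects. Removing wild-type mouse 2 raised the mean knockout count to 9, and removing knockout mouse 1, wild-type mouse 1 or knockout mouse 2 lowered it to 1, 0 and 0. The F test over populations gave 15 to 27, myoepithelial against luminal cells 11 to 25, non-clonogenic luminal cells against ductal progenitors 0 to 1, ductal against alveolar progenitors 6 to 16, non-clonogenic luminal cells against alveolar progenitors 9 to 19, and the parent pairs 0 to 6. Knockout mouse 1 set the lowest value for myoepithelial against luminal cells (13 without knockout mouse 2's myoepithelial array) and for ductal against alveolar progenitors (7 without knockout mouse 2), and knockout mouse 2 set those of the F test over populations and of alveolar progenitors against non-clonogenic luminal cells. The enzyme median minus the HIF target median kept its sign in all leave-outs for myoepithelial against luminal cells (-0.96 to -0.57), for non-clonogenic luminal cells (-1.05 to -0.71) and ductal progenitors (-0.87 to -0.32) against alveolar progenitors, and for the parent pairs (-0.59 to -0.30), but not for the knockout difference in the mean (-0.46 to 0.08) or in ductal progenitors (-0.54 to 0.47).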
